A study of Mus musculus with 12 samples.

Results

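The genes described here are 41 genes of DNA replication, which cover origin licensing, the replicative helicase, the polymerases, nucleotide supply and chromatin assembly. They were chosen by symbol, and a probe was kept when its detection p was under 0.05 on 3 or more of 12 arrays. The arrays carried 84 probes for the 41 genes, of which 59 passed, and these represent 35 of the 41 genes. All 9566 genes with a detected probe were tested together, and the brightest detected probe stands for each gene.

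RNA of mouse CD4 T cells was measured on 12 Illumina bead arrays, 3 for each of 4 cell divisions. The cells, naive when transferred, were CD4 T cells of the DO11.10 strain, which carries a transgenic T cell receptor for an ovalbumin (OVA) peptide, and they were stained with CFSE, a dye that is diluted at each division. All groups shared the same treatment: transfer into Balb/c mice, immunization of these hosts with OVA peptide in CFA (an adjuvant) and harvest of the lymph nodes 66 to 72 h later. The groups were D3, D4, D6 and D8, sorted by dye dilution as effectors that had divided 2, 3, 5 and 7 times, and each was taken in 3 independent experiments. The design text names D4 as the division that readily passes to memory after transfer, and calls this potential reduced in the other 3. The labels give neither the age of the animals, nor how many were pooled, nor a gate on the transferred receptor, and they name no removal of the recipients' own lymphocytes.

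Before a cell copies its DNA, the origin recognition complex, Cdc6 and Cdt1 load the ring-shaped MCM helicase onto origins. In S phase, Cdc45 and the GINS complex join MCM to form the active helicase, polymerases extend primers made by primase, and the clamp PCNA holds the polymerases on the template. Nucleotide synthesis enzymes supply the building blocks, and T cells that proliferate after antigen contact raise many of these genes together.

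From D3 to D8, 32 of the 35 measured replication genes rose and 0 fell, against 17.6% of all genes tested that rose and 18.9% that fell (limma, Benjamini-Hochberg adjusted p under 0.05). The median change of the 35 genes was 1.00 on the log2 scale, beside 0.00 over all genes. A total of 17 of the 35 rose by more than 2-fold, as did 4.2% of all genes. The ribonucleotide reductase subunit Rrm2 had the largest change, 2.57 ± 0.25 (SE), and the DNA polymerase delta subunit Pold2 the smallest, -0.14 ± 0.17. Arrays measure RNA in bulk, so more cells in S phase and more RNA per cell cannot be told apart.

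The order of the divisions was kept by most members. The 4 division means rose in the order D3, D4, D6, D8 for 30 of the 35 genes, against 16.7% of all genes, and fell in that order for 0 of the 35, against 18.6%. D8 had the highest mean for 34 of the 35 members and D3 the lowest for 34, and the shares over all genes were not counted. The slope over the number of times divided was called above 0 for 31 members and below 0 for 0, where 19.3% and 20.5% of all genes were called, and its median was 0.20 log2 per division.

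**Figure D1:**
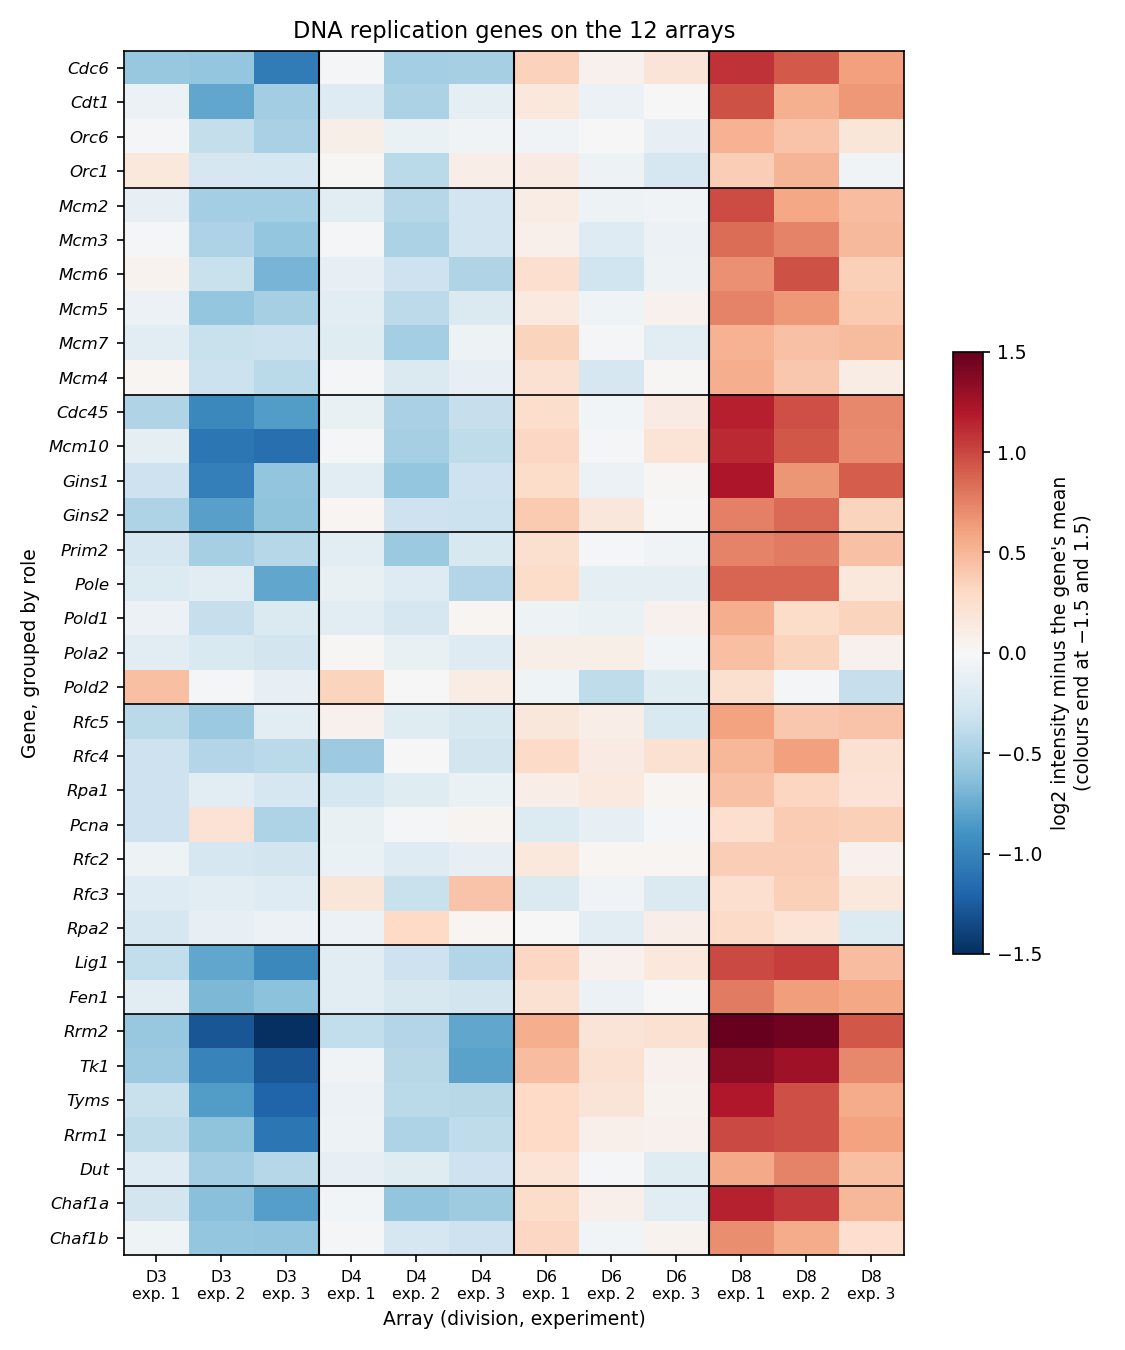
Log2 intensity of the 35 replication genes (rows, grouped by role, largest D8 minus D3 change first in each group) on the 12 arrays (columns), each gene minus its own mean over the arrays. Most rows turn from blue in D3 to red in D8, and the means of Orc6, Pold2, Pcna, Rfc3 and Rpa2 are not in rising order.

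Among the listed genes, 6 had no detected probe on any array and were not tested: Orc2, the polymerase subunits Pola1 and Pole2, the primase subunit Prim1, the histone mRNA binding protein Slbp and Dtl, which directs Cdt1 to degradation. Of the 84 probes, 51 were detected on all 12 arrays, 8 on 3 to 11, 4 on 1 or 2 and 21 on none. Of the probes that passed, that of Orc1 was detected on the fewest arrays, 6. Just outside the limit, second probes of Rrm1 and Dut were detected on 2 arrays. The probes that stand for the other 34 genes were detected on all 12 arrays.

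The start regions of the members were searched for words bound by factors of the cell cycle. E2F factors control many S phase genes, and the words TTTCCCGC, TTTCGCGC, TTTGCCGC and TTTGGCGC were counted on both strands, overlapping ones included, in the 250 bases before the start of each gene (RefSeq, GRCm38.p6, 1 window per gene). A window was given for 29 of the 35 tested members, and not for Pole, Gins1, Gins2, Rfc2, Mcm4 and Prim2. An E2F word stood in 6 of the 29 windows (20.7%), in 3.65% of the windows of all tested genes and in 1.92% of all 27025 windows. The CCAAT box, bound by NF-Y, stood in 17 of the 29 windows (58.6%) and in 37.1% of those of all tested genes. The word TTTGAA, part of the element called CHR that is known from promoters of mitosis genes, stood in 3 of 29 (10.3%) and in 10.7% of all tested genes. A match describes the letters only, and binding was not measured.

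Sequences of 5 members with an E2F word that rose from D3 to D8 are shown, so that the words can be seen in place, together with the members of the largest and the smallest change, which have no such word in this stretch. The sixth window with a word is that of Orc1, which was not called. By call, the word stood in 5 of 26 windows of members that rose (19.2%), in 1 of 3 of members not called (33.3%) and in 2 of 6 of members never detected (33.3%). Each line gives the 250 bases before the start in the direction of the gene, and capitals mark E2F words and CCAAT boxes on either strand. The windows lie at chr11:98907901-98908150 (Cdc6, plus strand), chr8:75109259-75109508 (Mcm5, plus), chr1:128359706-128359955 (Mcm6, minus), chr5:138171884-138172133 (Mcm7, minus), chr5:151651209-151651458 (Rfc3, minus), chr12:24708004-24708253 (Rrm2, plus) and chr11:5878257-5878506 (Pold2, minus).
Cdc6: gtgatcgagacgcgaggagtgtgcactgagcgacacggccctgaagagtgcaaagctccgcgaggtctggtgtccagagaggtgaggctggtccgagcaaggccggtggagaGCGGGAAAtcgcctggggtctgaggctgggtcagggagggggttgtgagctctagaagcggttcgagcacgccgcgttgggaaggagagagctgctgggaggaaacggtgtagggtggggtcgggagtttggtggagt
Mcm5: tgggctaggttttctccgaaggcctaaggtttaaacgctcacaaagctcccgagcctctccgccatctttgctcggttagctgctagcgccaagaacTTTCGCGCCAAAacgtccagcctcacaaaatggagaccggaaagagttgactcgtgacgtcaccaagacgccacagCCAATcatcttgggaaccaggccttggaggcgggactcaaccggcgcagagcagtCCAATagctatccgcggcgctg
Mcm6: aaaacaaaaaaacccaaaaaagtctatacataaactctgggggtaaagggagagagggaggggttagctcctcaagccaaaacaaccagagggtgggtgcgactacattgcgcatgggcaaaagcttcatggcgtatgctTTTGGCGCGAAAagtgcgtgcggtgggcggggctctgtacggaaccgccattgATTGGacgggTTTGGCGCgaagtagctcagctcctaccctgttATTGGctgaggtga
Mcm7: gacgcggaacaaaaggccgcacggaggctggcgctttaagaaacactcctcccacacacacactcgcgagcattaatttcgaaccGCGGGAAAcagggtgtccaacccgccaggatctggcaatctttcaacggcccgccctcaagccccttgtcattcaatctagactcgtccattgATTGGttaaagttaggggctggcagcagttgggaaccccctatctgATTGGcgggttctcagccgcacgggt
Rfc3: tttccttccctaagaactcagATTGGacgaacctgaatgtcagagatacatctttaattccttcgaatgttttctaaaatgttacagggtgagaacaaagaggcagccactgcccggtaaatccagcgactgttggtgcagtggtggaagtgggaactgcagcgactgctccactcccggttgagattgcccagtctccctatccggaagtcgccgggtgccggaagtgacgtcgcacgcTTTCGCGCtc
Rrm2: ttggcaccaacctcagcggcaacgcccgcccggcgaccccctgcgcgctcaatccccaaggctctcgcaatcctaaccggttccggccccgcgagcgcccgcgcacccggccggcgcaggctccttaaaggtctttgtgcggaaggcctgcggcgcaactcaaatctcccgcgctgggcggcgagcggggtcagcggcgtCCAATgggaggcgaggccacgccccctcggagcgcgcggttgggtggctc
Pold2: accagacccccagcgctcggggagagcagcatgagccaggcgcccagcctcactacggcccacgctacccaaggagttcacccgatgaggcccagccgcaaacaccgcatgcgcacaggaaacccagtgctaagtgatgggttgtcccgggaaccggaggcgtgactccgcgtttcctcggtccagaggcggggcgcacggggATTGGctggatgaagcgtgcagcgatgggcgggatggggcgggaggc
In the Cdc6 stretch 1 E2F word begins 138 bases before the start, and the stretch has no CCAAT box. Mcm6 has 3 words, at 110, 106 and 47 bases, of which the first 2 overlap, and Mcm5 has 2 overlapping words at 153 and 149 bases. The single words of Mcm7 and Rfc3 begin at 165 and 10 bases. Rrm2 and Pold2 each have 1 CCAAT box, at 50 and 47 bases before the start.

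Origin licensing genes rose in 3 of 4 measured members from D3 to D8, with a median change of 0.92. Values below are normalized log2 intensities, given in the order of experiments 1, 2 and 3. These are the numbers in the sample names, taken to mark the same experiment in each division. Cdc6, the ATPase that loads the MCM ring together with the origin recognition complex, measured 6.87, 6.86 and 6.40 in D3, 7.43, 6.94 and 6.94 in D4, 7.79, 7.51 and 7.63 in D6 and 8.52, 8.37 and 8.06 in D8. No array of a later division fell below an array of an earlier one, and all 4 divisions were separate. The change from D3 (6.71 ± 0.27, SD, n = 3) to D8 (8.32 ± 0.23) was 1.61 ± 0.17 (SE, adjusted p = 5.91e-06), which is 3.05-fold.

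Cdt1, the partner of Cdc6 in MCM loading, rose by 1.18 ± 0.17 (adjusted p = 8.78e-05), and Orc6, a subunit of the origin recognition complex, by 0.67 ± 0.13 (adjusted p = 0.00103). Orc1, the ATPase subunit of that complex, was dim, with 4.90, 4.49 and 4.48 in D3, 4.76, 4.34 and 4.85 in D4, 4.87, 4.67 and 4.49 in D6 and 5.11, 5.25 and 4.69 in D8. These values overlap between all divisions and lie close to background. Its difference of 0.39 ± 0.18 was not called (adjusted p = 0.101).

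All 6 subunits of the MCM helicase rose from D3 to D8, by a median of 0.99. Mcm2 measured 8.86, 8.48 and 8.48 in D3, 8.82, 8.56 and 8.70 in D4, 9.10, 8.92 and 8.94 in D6 and 9.96, 9.57 and 9.45 in D8. Its D3 and D4 arrays overlap, its D6 arrays are all above those, and its D8 arrays are above all others. The change was 1.05 ± 0.15 (adjusted p = 6.88e-05), a fold of 2.07, and that of Mcm3 was 1.05 ± 0.16 (adjusted p = 0.000143).

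Mcm5, Mcm6 and Mcm7 rose by 0.98 ± 0.14, 1.00 ± 0.20 and 0.76 ± 0.14, with adjusted p-values of 8.3e-05, 0.00125 and 0.000727. The smallest change of the ring was that of Mcm4, which measured 12.27, 11.92 and 11.83 in D3, 12.22, 12.03 and 12.12 in D4, 12.47, 11.99 and 12.26 in D6 and 12.78, 12.64 and 12.35 in D8. Its D8 arrays were above every D3 array and overlapped those of D6. It rose by 0.58 ± 0.15 (adjusted p = 0.00828), or 1.5-fold.

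The factors that turn the loaded ring into an active helicase rose in 4 of 4 measured members, with a median change of 1.64. Cdc45, the factor that binds the ring at origin firing, measured 7.37, 6.85 and 6.98 in D3, 7.70, 7.34 and 7.47 in D4, 8.08, 7.78 and 7.94 in D6 and 8.99, 8.78 and 8.54 in D8. The D3 and D4 arrays overlap slightly, and D6 and D8 are each separate from the division before. It rose by 1.71 ± 0.16 (adjusted p = 1.55e-06), or 3.26-fold, and by 0.84 ± 0.16 from D6 to D8 alone (adjusted p = 0.00411).

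Mcm10, which is needed for the activated helicase to move, rose by 1.71 ± 0.22 from D3 to D8 (adjusted p = 4.23e-05), and the GINS subunit Gins1 by 1.57 ± 0.19 (adjusted p = 1.69e-05). The GINS subunit Gins2 had the smallest change of the group and measured 6.92, 6.56 and 6.78 in D3, 7.41, 7.07 and 7.06 in D4, 7.77, 7.56 and 7.37 in D6 and 8.14, 8.23 and 7.72 in D8. Its D3 arrays lay below all D4 arrays, and its lowest D8 array lay just below its highest D6 array. It rose by 1.28 ± 0.16 (adjusted p = 2.48e-05), or 2.42-fold.

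Among polymerase and primase subunits, 4 of 5 measured members rose, and the median change was 0.60. Prim2, the large primase subunit, measured 6.75, 6.51 and 6.58 in D3, 6.85, 6.45 and 6.77 in D4, 7.24, 6.98 and 6.95 in D6 and 7.75, 7.79 and 7.45 in D8. D3 and D4 overlap, and D6 and D8 are each above the division before. It rose by 1.05 ± 0.14 (adjusted p = 3.91e-05), or 2.07-fold.

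Pole, the catalytic subunit of the leading-strand polymerase epsilon, rose by 1.02 ± 0.21 (adjusted p = 0.0015). Pold1, the catalytic subunit of polymerase delta, rose by 0.60 ± 0.12 (adjusted p = 0.00107), and Pola2, the accessory subunit of polymerase alpha, by 0.51 ± 0.11 (adjusted p = 0.00279). Pold2, which joins Pold1 in the same enzyme, measured 9.04, 8.56 and 8.46 in D3, 8.92, 8.60 and 8.69 in D4, 8.53, 8.21 and 8.40 in D6 and 8.83, 8.56 and 8.24 in D8. Its D6 arrays were all below its D4 arrays, and its D8 arrays overlapped those of D3, D4 and D6. Its difference between D8 and D3 was -0.14 ± 0.17 (adjusted p = 0.559), and that between D6 and D4 was -0.36 ± 0.17 (adjusted p = 0.299). Neither was called, the first turned in direction without the D3 array of experiment 1 (0.031) or the D8 array of experiment 3 (0.0083), and the difference between Pold1 and Pold2 was not tested.

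The sliding clamp, its loader and the single-strand binding proteins had the smallest median change of the role groups, 0.52, and 6 of 7 rose. Rfc5, a subunit of the clamp loader RFC, measured 7.36, 7.21 and 7.60 in D3, 7.82, 7.59 and 7.53 in D4, 7.93, 7.86 and 7.53 in D6 and 8.36, 8.17 and 8.19 in D8. The D8 arrays were above all others, while D3, D4 and D6 overlapped. It rose by 0.85 ± 0.14 (adjusted p = 0.000254), or 1.8-fold, and the loader subunits Rfc4 and Rfc2 rose by 0.83 ± 0.14 (adjusted p = 0.000333) and 0.47 ± 0.11 (adjusted p = 0.00416).

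Rfc3, the remaining loader subunit on the list, rose by 0.44 ± 0.15 (adjusted p = 0.0374), a call that was lost without any 1 of the D3 arrays and without the D8 arrays of experiments 1 and 2, at changes of 0.39 to 0.45. It was also lost with the authors' deposited second table (0.73, adjusted p = 0.0753), with normexp without negative controls (0.21, adjusted p = 0.0696) and without the detection filter (adjusted p = 0.0824). Pcna, the clamp itself, measured 6.31, 6.85 and 6.16 in D3, 6.51, 6.61 and 6.67 in D4, 6.42, 6.51 and 6.61 in D6 and 6.88, 7.01 and 6.99 in D8. Its D8 arrays were above every other array, by a narrow margin over the D3 array of experiment 2. It rose by 0.52 ± 0.15 (adjusted p = 0.0132), and the call was lost without the D3 array of experiment 1 (0.45) or of experiment 3 (0.38).

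Rpa1, the large subunit of the single-strand binding protein RPA, rose by 0.57 ± 0.10 (adjusted p = 0.000443). Rpa2, its middle subunit, measured 6.75, 6.88 and 6.91 in D3, 6.91, 7.30 and 7.03 in D4, 7.01, 6.83 and 7.10 in D6 and 7.29, 7.21 and 6.80 in D8. The arrays of all divisions overlapped, and the highest value was in D4. Its difference from D3 to D8 was 0.25 ± 0.14 (adjusted p = 0.188), with other probes of the gene between -0.42 and 0.34.

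Both genes of lagging-strand processing rose, by a median of 1.34. Lig1, the ligase that joins Okazaki fragments, measured 8.62, 8.21 and 8.02 in D3, 8.82, 8.67 and 8.55 in D4, 9.30, 9.05 and 9.14 in D6 and 9.98, 10.02 and 9.44 in D8. The D3 and D4 arrays overlap, all D6 arrays are higher, and all D8 arrays are higher again. It rose by 1.53 ± 0.17 (adjusted p = 9.9e-06), or 2.9-fold.

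Fen1, the nuclease that trims the flaps of Okazaki fragments, measured 10.43, 9.93 and 9.98 in D3, 10.43, 10.36 and 10.33 in D4, 10.82, 10.51 and 10.60 in D6 and 11.38, 11.22 and 11.18 in D8. It had the same order, with D3 and D4 overlapping and D6 and D8 separate. It rose by 1.14 ± 0.14 (adjusted p = 1.64e-05), or 2.21-fold.

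All 5 genes of nucleotide supply rose, and their median change of 1.70 was the largest of the role groups. Rrm2, the subunit of ribonucleotide reductase that is made in S phase, measured 6.66, 5.95 and 5.52 in D3, 6.86, 6.78 and 6.45 in D4, 7.77, 7.42 and 7.45 in D6 and 9.01, 8.67 and 8.16 in D8. The D3 array of experiment 1 reached the lower D4 values, and D6 and D8 were each separate from the division before. It rose by 2.57 ± 0.25 (adjusted p = 3.18e-06), or 5.96-fold. Tk1, the cytosolic thymidine kinase, rose by 2.06 ± 0.22 (adjusted p = 6.68e-06), or 4.18-fold.

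Rrm1, the large reductase subunit, rose by 1.55 ± 0.17 (adjusted p = 9.66e-06), and Tyms, the thymidylate synthase, by 1.70 ± 0.20 (adjusted p = 1.54e-05). Dut, the enzyme that removes dUTP, had the smallest change of the group and measured 6.17, 5.85 and 5.95 in D3, 6.25, 6.19 and 6.06 in D4, 6.57, 6.35 and 6.19 in D6 and 6.94, 7.12 and 6.83 in D8. Its D8 arrays were above all others, and neighbouring earlier divisions overlapped. It rose by 0.97 ± 0.13 (adjusted p = 4.46e-05), or 1.96-fold.

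Both measured subunits of CAF-1, the complex that places histones on new DNA, rose, with a median of 1.19. Chaf1a, the large subunit, measured 7.33, 6.99 and 6.78 in D3, 7.57, 7.02 and 7.07 in D4, 7.89, 7.68 and 7.45 in D6 and 8.76, 8.67 and 8.10 in D8. Its D8 arrays were above all others, and its D6 arrays overlapped the D4 array of experiment 1. It rose by 1.48 ± 0.20 (adjusted p = 5.42e-05), or 2.78-fold. Chaf1b, the middle subunit, measured 8.27, 7.76 and 7.74 in D3, 8.32, 8.08 and 8.03 in D4, 8.64, 8.30 and 8.39 in D6 and 9.03, 8.89 and 8.59 in D8. Neighbouring divisions overlapped, and D8 was above D3 and D4 on every array. It rose by 0.91 ± 0.16 (adjusted p = 0.000513), or 1.88-fold.

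**Figure D2:**
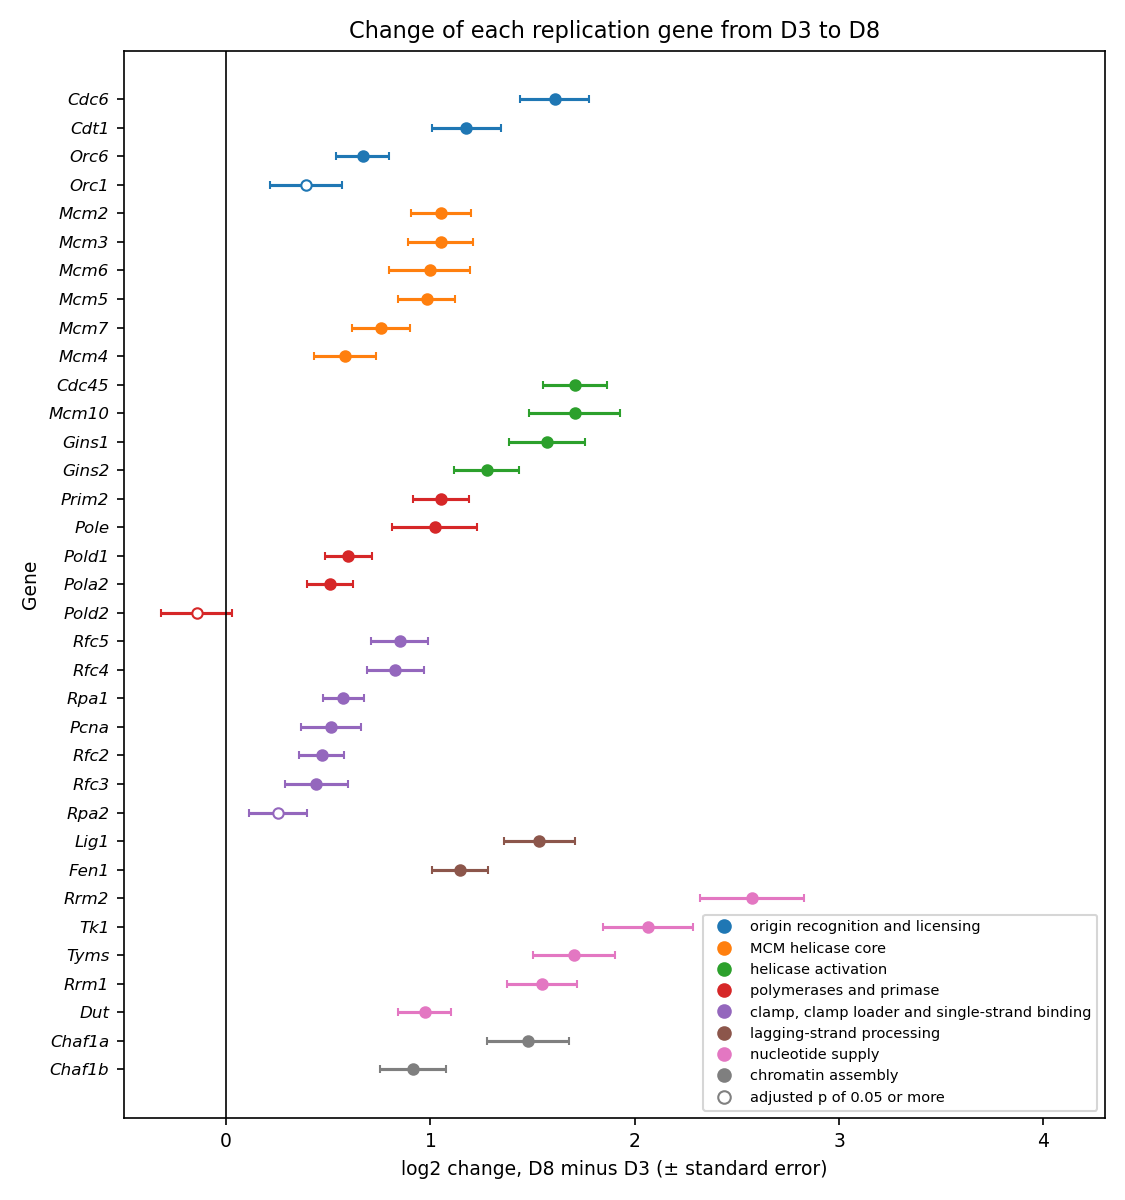
Change from D3 to D8 of each of the 35 genes (x axis, log2, ± standard error, 3 arrays in each division), coloured by role, with open points for genes that were not called. Changes run from -0.14 (Pold2) to 2.57 (Rrm2), and the 5 largest are those of Rrm2, Tk1, Cdc45, Mcm10 and Tyms, all of nucleotide supply or helicase activation.

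**Figure D3:**
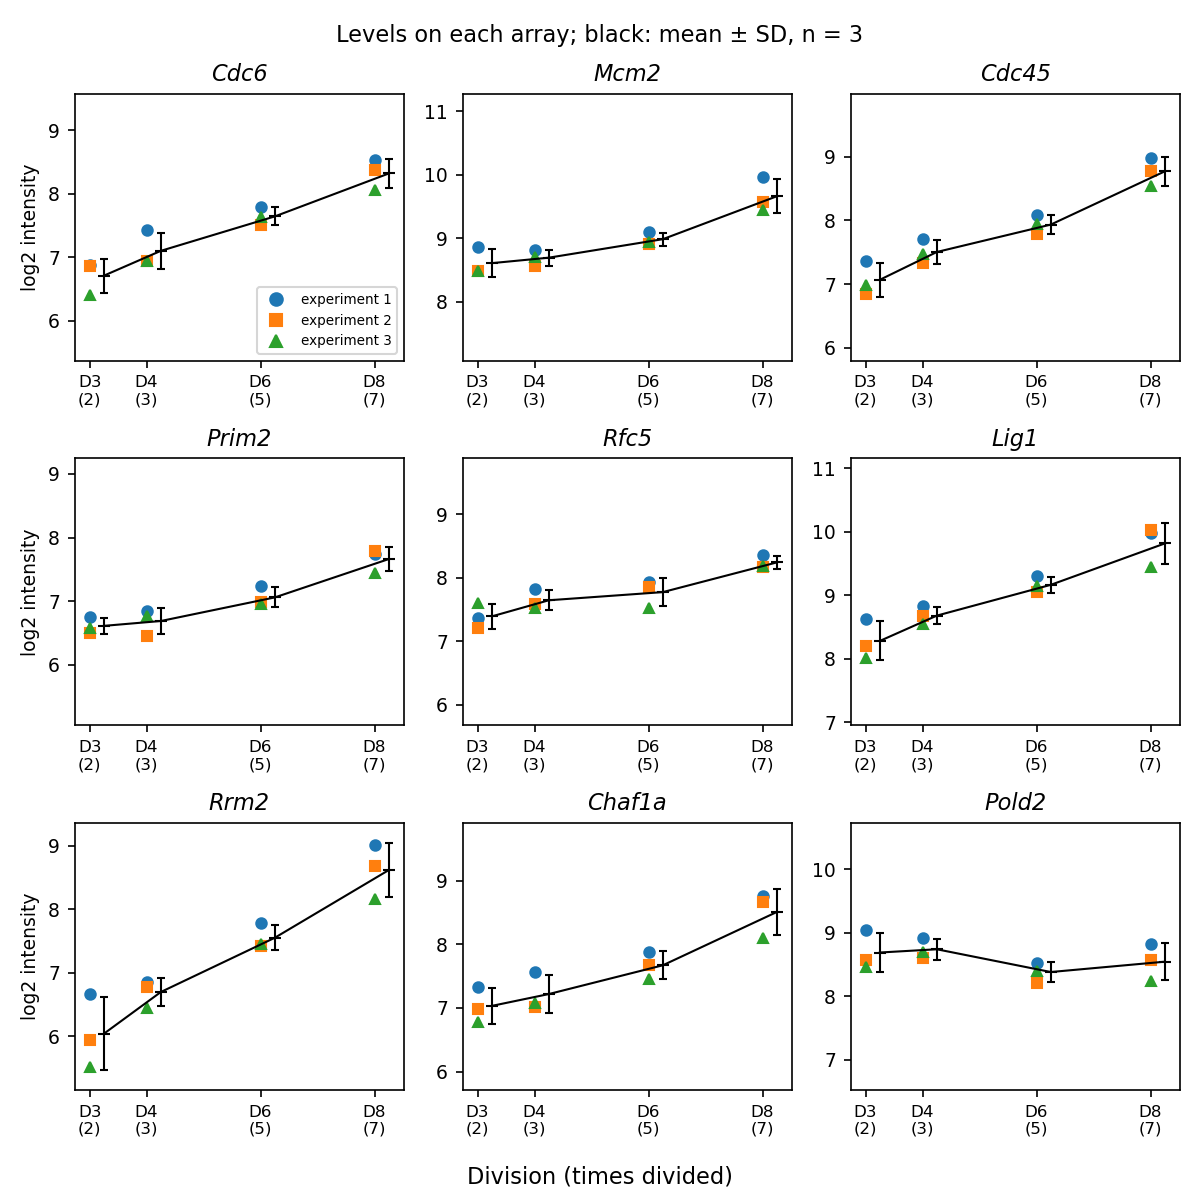
Normalized log2 intensity (y axis, each panel spanning the same range) against the division, with times divided in parentheses, for the member with the largest change in each role group and for Pold2. Coloured points are the arrays of experiments 1 to 3, and the black line joins means ± SD (n = 3), drawn slightly to the right of the points.

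The same pattern appeared in each experiment. From D3 to D8 the median change of the members was 0.87, 1.21 and 0.88 in experiments 1, 2 and 3, and 33 of the 35 genes were higher in D8 in 3 of 3 experiments, against 32.2% of all genes. Every D8 array was above every D3 array for 32 members, against 22.7%. The array of experiment 1 was the highest of D3 for 29 members, of D4 for 26, of D6 for 29 and of D8 for 26, where 33.1%, 36.2%, 38.4% and 34.2% of all genes had their highest value on it. The D8 array of experiment 3 was the lowest of D8 for 29 members, against 38.2% of all genes. What lay behind this shift between experiments was not tested.

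D4 is the division named for its memory potential, and 30 of the 35 members had its mean between those of D3 and D6. These are the 30 whose 4 means rose in order, as did 16.7% of all genes. How many of all genes had D4 between D3 and D6 was not counted. Between D3 and D4, 0 members were called in either direction, where 0% of all genes were called higher and 0.0105% lower. All 35 differences between division means were above 0, beside 48% of all genes, with a median of 0.19. Within experiments 1, 2 and 3, 23, 27 and 34 of the 35 were above 0, with medians of 0.10, 0.14 and 0.29. A total of 16 members were higher in D4 in 3 of 3 experiments, against 16.8% of all genes. An unadjusted p under 0.05 was found for 9 members, beside 3.76% of all genes. The smallest adjusted p was 0.52. For 2 members, Cdc6 and Gins2, every D4 array was above every D3 array, beside 5.87% of all genes. With the experiment as a block in the model, 1 member was called higher, Tk1 (0.52 ± 0.22 without the block, adjusted p = 0.655 without and 0.0401 with it), where 0.512% of all genes were.

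From D4 to D6, which are 2 divisions apart, 0 members were called, where 2.34% of all genes were called higher and 1.92% lower. The median difference was 0.29, 30 of 35 were above 0 (beside 49.4% of all genes), and 15 had an unadjusted p under 0.05, beside 9.23% of all genes. The block called 10 members higher, and 5.28% of all genes: Cdc6, Cdc45, Gins1, Rfc4, Lig1, Rrm1, Rrm2, Tyms, Tk1 and Chaf1a. Rrm2 had the largest difference, 0.85 ± 0.25, with an adjusted p of 0.0801 without the block and 0.00272 with it.

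From D6 to D8, also 2 divisions apart, 21 members rose and 0 fell, against 4.78% and 4.54% of all genes, and the median change was 0.59. All 35 were above 0, beside 50.5% of all genes, and for 25 every D8 array was above every D6 array, beside 14.1%. The 21 held 5 of 5 nucleotide supply genes, 2 of 2 of lagging-strand processing, 3 of 4 of origin licensing, 3 of 4 of helicase activation, 4 of 6 MCM subunits, 2 of 5 polymerase and primase subunits, 1 of 2 CAF-1 subunits and 1 of 7 of the clamp, loader and RPA group. Rrm2 rose by 1.06 ± 0.25 (adjusted p = 0.0176). With the experiment as a block, 27 members were called higher, and 845 of all 9566 genes. The member count was 9 with the authors' deposited second table and 8 without the detection filter. Over all genes, 378 of 9566 and 352 of 19057 were called higher in these settings. The member count also depended on single arrays. It was 4 without the D6 array of experiment 2 and 5 without that of experiment 3. It was 2 without the D8 array of experiment 1 and 6 without that of experiment 2. The calls over all 9566 genes fell as well, from 457 to 244, 243, 172 and 268 in the same order. The median change stayed between 0.51 and 0.69 when any array was left out, and it was 0.55, 0.67 and 0.43 in experiments 1, 2 and 3.

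**Figure D4:**
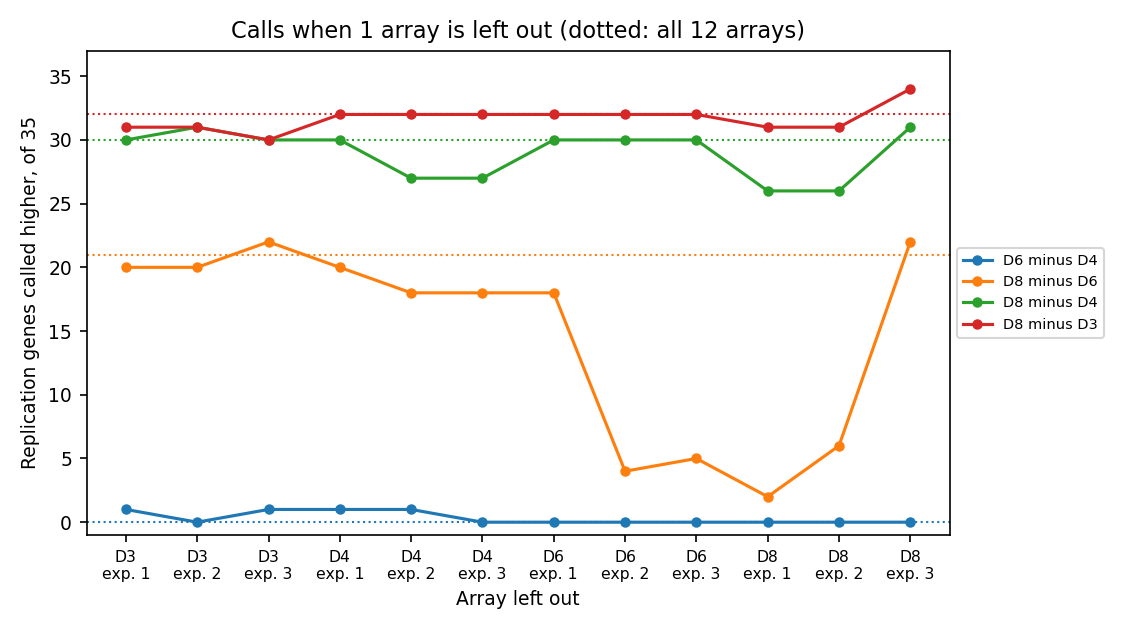
Number of the 35 replication genes called higher (y axis) in each of 4 comparisons when the array on the x axis was left out, with dotted lines at the number from all 12 arrays. The D8 minus D6 count falls from 21 to between 2 and 6 without 4 of the D6 and D8 arrays, whereas the D8 minus D3 count lies between 30 and 34. Without these 4 arrays, the D8 minus D6 count over all 9566 genes (not drawn) also falls, from 457 to between 172 and 268.

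Between D4 and D8, 30 members rose and 0 fell, against 13.9% and 14.6% of all genes, with a median of 0.85. Of these, 10 rose by more than 2-fold, as did 3.05% of all genes. Every D8 array was above every D4 array for 31 members, beside 20.4% of all genes. Not called were Pold2, Rpa2, Orc1, Rfc3 and Pcna. Pcna was 0.36 ± 0.15 higher in D8, with an adjusted p of 0.0817 that became 0.0461 with the block. These comparisons share arrays with each other and are not independent.

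The later step was compared with the earlier one in the same model. The difference between the D6-to-D8 change and the D4-to-D6 change had a median of 0.29 and was above 0 for 32 of 35 members, beside 50% of all genes. It was called for 0 members in either direction, and for 0.0209% of all genes above 0 and 0.0105% below, with 1 member at an unadjusted p under 0.05, beside 3.3% of all genes above 0, and a smallest adjusted p of 0.679. The median was 0.19 without the D6 array of experiment 2 and 0.44 without that of experiment 1. Among the 32 members that rose from D3 to D8, the last step held a median of 54.9% of the change (range 28.4% to 94.2%), the step from D4 to D6 28% and that from D3 to D4 20.8%. The last step was the largest for 29 of the 32. The share over all genes was not counted, and the 32 were picked by a change that contains this step. The step from D3 to D4 spans 1 division and the others 2 each, so its share is not set against theirs per division.

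Mitosis genes, which act after replication in the same cycle, gave another reference. Of 30 listed genes 22 were measured, Aurkb and Plk1 among them. From D3 to D8 all 22 rose, with a median of 2.29 beside 1.00 for the replication genes, and 21 rose by more than 2-fold. Of all genes, 17.6% rose and 4.2% rose by more than 2-fold. Between D3 and D4, 0 were called, with a median of 0.51. With the experiment as a block in the model, 12 of the 22 were called higher at this step, where 0.512% of all genes were. A total of 18 rose from D4 to D6 with a median of 0.95, and 21 rose from D6 to D8 with a median of 0.82. Of all genes, 2.34% and 4.78% rose in these steps. The block called all 22 higher from D4 to D6, where 5.28% of all genes were. The last step was the largest for 8 of these 22 and held a median of 36.6% of their change from D3 to D8. The replication genes had their medians at 0.19, 0.29 and 0.59 for the steps from D3 to D4, D4 to D6 and D6 to D8. The difference between the lists was not tested.

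**Figure D5:**
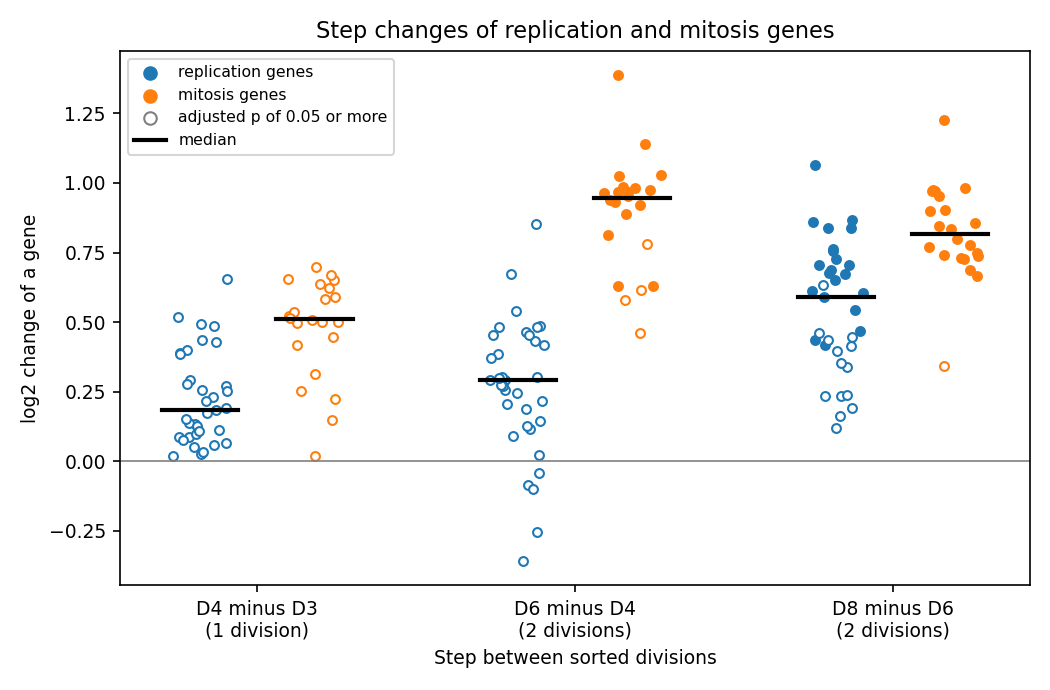
Log2 change of each replication gene (blue, 35 genes) and each mitosis gene (orange, 22 genes) in the 3 steps between sorted divisions, filled where called, with medians as black bars. The replication medians are 0.19, 0.29 and 0.59, and filled blue points appear only in the last step. Calls are those of the model without the experiment as a block. With the block (not drawn), 1 replication gene was called higher from D3 to D4 and 10 from D4 to D6.

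Other replication genes outside the 41 were counted from a longer list, of which 38 of 46 were measured. From D3 to D8, 22 rose and 2 fell, beside 17.6% and 18.9% of all genes, with a median of 0.51. The largest changes were those of Clspn, an adaptor of the replication checkpoint (2.20 ± 0.20, adjusted p = 1.24e-06), Asf1b, a histone chaperone (1.98 ± 0.16, adjusted p = 4.98e-07), and Chtf18, a subunit of an alternative clamp loader (1.41 ± 0.20, adjusted p = 9.89e-05). Pold4, the smallest subunit of polymerase delta, fell (-0.69 ± 0.11, adjusted p = 0.000209), as did Rrm2b, the reductase subunit that is induced by p53 (-0.46 ± 0.12, adjusted p = 0.00949). Timeless, of the fork protection complex, was next lowest at -0.15 ± 0.14 (adjusted p = 0.425). From D4 to D6, 4 of the 38 rose, Supt16, Mtbp, Asf1b and Clspn, and 0 fell, beside 2.34% and 1.92% of all genes.

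Of the 35 members, 15 had more than 1 detected probe, and the changes were those of the brightest. Of their 24 further probes, 23 were above 0 from D3 to D8, and 16 were called higher in a fit of all 17829 detected probes. In that fit 48 of the 59 member probes rose and 0 fell, against 15.4% and 16.8% of all probes. The brightest probe had the largest change for 11 of the 15 genes. The second probe of Rrm2 gave 2.22 beside 2.57, that of Tk1 0.93 beside 2.06, that of Rfc4 0.20 beside 0.83 and that of Rfc5 0.14 beside 0.85. For Lig1, further probes gave 0.21 to 1.40 beside 1.53.

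The labelled cell type was checked with marker genes, and values are the log2 of the summed intensity of the measured members of a list, as the lowest and highest array of a division. For CD4 T cells, 7 of 8 markers were measured, at 15.75 to 15.85 in D3 and 15.54 to 15.56 in D8. From D3 to D8, 3 of the 7 fell, Cd3g (-0.37 ± 0.11, adjusted p = 0.0162), Cd3d (-0.35 ± 0.09, adjusted p = 0.0085) and Cd2 (-0.33 ± 0.12, adjusted p = 0.0447), 0 rose, and the median was -0.18. Among B cell markers, Cd79b and Cd22 were measured, at 6.01 to 6.47 in D3 and 6.59 to 7.36 in D8, while Cd79a, Ms4a1 and Pax5 did not pass the filter. Cd22 rose by 1.72 ± 0.31 (adjusted p = 0.000621), whereas Cd79b differed by -0.26 ± 0.29 (adjusted p = 0.521). The NK marker Klrd1, which activated T cells also express, was at 5.26 to 5.78 in D3 and 6.54 to 7.39 in D8, while Ncr1 and Klrb1c did not pass. The 2 of 7 myeloid markers that passed were at 5.82 to 6.67 and 6.41 to 7.15. The summed B cell value and Klrd1 were higher on every D8 array than on every D3 array, and the myeloid values overlapped. Of the CD8, dendritic, erythroid and stromal lists, 1 or 2 members passed each. Cd8b1 was at 11.35 to 11.92 in D3 and 11.17 to 11.48 in D8. The dendritic markers were at 5.88 to 6.19 and 5.83 to 6.20, and the erythroid marker at 4.27 to 6.43 and 4.38 to 5.44. From the stromal list only Pecam1 was measured, at 9.05 to 9.30 and 8.61 to 9.01, and the collagen genes Col1a1 and Col1a2 were not. The part of these cells in the result was not tested.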

How the data were processed

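Total RNA of the 12 samples was labelled with biotin and hybridised to Illumina arrays, per the labels. The deposited intensity of each probe, read with BeadStudio 2.0 per the submitters' processing notes, was neither normalized nor background-subtracted. The authors' deposited detection p-value per probe stands beside it. A further deposited intensity table, whose method is not given in the sources used here, served as an alternative.

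The neqc function of limma (version 3.58.1, R version 4.3.3) was used for normalization (negative controls inferred from the detection p, 936 per array; offset 16; quantile normalization; log2). The offset makes changes of dim probes smaller. Of 45281 probes, 34885 carried 1 symbol in the annotation table, and 17829 were detected at p under 0.05 on at least 3 arrays (15563 to 16666 probes per array). The number of arrays limits the precision. A linear model with 4 division means (lmFit, eBayes, tested on simulated data) was fitted to all 9566 genes, with Benjamini-Hochberg adjustment over them and a threshold of 0.05.

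The number in a sample name was taken to mark an experiment shared by all divisions, which the names alone do not state. After removal of division means, the 18 pairs of arrays of 1 experiment correlated at 0.205 to 0.438 and the other 36 at -0.373 to 0.0342. The members and gene lists were chosen with earlier results of these data known. Values on each array are given for the largest and the smallest D8 minus D3 change in each role group, and also for Pcna, which was chosen after its values were seen. The 3 largest changes in either direction are named for the other replication genes, beside those called from D4 to D6. Alternatives were the block, other background correction and scaling, the deposited values of the second table, other filters, the mean of probes, only the divisions compared, and each array left out. Promoter sequences are from RefSeq (GRCm38.p6).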

Additional observations from a re-analysis of the deposited data

How the results depend on the processing

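The D8 minus D3, D8 minus D4 and trend counts stayed within 1.5 times of their values under every alternative run. With the experiment as a replicate block, 1 member was called higher from D3 to D4 and 10 from D4 to D6, and no other count moved by over 1.5 times. From D4 to D6, 1 member was called higher with the mean of all detected probes and 1 with only the divisions compared. From D6 to D8, the authors' values gave 9 members higher and no detection filter gave 8, in place of 21. Over all genes they gave 378 of 9566 and 352 of 19057, in place of 457 of 9566. The median change from D6 to D8 was 0.42 with normexp without negative controls and 0.46 with no detection filter, and that from D3 to D8 was 0.80 with normexp. The cause of these moves was not tested.

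When 1 array was left out, the members called higher ranged from 0 to 1 (D6 minus D4), 2 to 22 (D8 minus D6), 26 to 31 (D8 minus D4), and 30 to 34 (D8 minus D3). The D8 minus D6 count over all 9566 genes ranged from 172 to 539. The median change ranged from 0.20 to 0.34 from D4 to D6, and that of the difference between the later and the earlier step from 0.19 to 0.44. The D8 minus D3 difference of Pold2, not called in any of these, ranged from -0.29 to 0.03, and it turned in direction without the D3 array of experiment 1 (0.031) or the D8 array of experiment 3 (0.0083). For single genes over all arrays left out, 7 calls from D3 to D8 (Rfc3 and Pcna) and 83 from D6 to D8 were lost. With 3 arrays a division, small differences such as those of Orc1, near background, were not resolved.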
